A study of Mus musculus with 6 samples.

Results

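The myosin light chain genes Myl1, Myl2, Myl3, Myl4, Myl6, Myl6b, Myl7 and Myl9 and the light chain kinase gene Mylk were followed in mouse ovarian tumours grown with or without oestradiol. These 9 genes were chosen by symbol out of 19937 genes with a single-gene probe set on the array, and all 9 were measured. Where a gene had several probe sets, the one with the highest mean over the 6 arrays was used. Myl7 was singled out with its difference between the treatments already known. Its difference, interval and call in the fit over all genes are therefore descriptions and not a test of it.

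The samples were 3 tumours from SCID mice with placebo pellets and 3 from SCID mice with pellets of 17β-estradiol (E2), 1 array each. These immunodeficient hosts have no mature lymphocytes of the T and B lineages. In every animal the tumour came from injected MASE2 cells, which were ascites cells of a tgCAG-LS-TAg mouse that had itself been treated with E2. In that model an adenovirus carrying Cre, delivered under the ovarian bursa, switches on the large and small T antigens of SV40 in ovarian surface epithelium, so the placebo tumours carry the T antigens as well. Pellets and cells were given at the same time, and tumours were taken at loss of wellness. The sources used here give no age of the mice and do not say whether MASE2 cells are a single clone.

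Muscle and non-muscle myosin II is built from a pair of heavy chains, each of which binds an essential and a regulatory light chain. The light chains come in tissue forms. In the mouse heart Myl7 encodes the regulatory chain and Myl4 the essential chain of the atria, and Myl2 and Myl3 encode those of the ventricles and of slow skeletal muscle. Myl1 encodes the essential chain of fast skeletal muscle. Myl9 encodes a regulatory chain of smooth muscle and contractile stroma, and Myl6 and Myl6b encode essential chains found in smooth muscle and non-muscle cells. Mylk encodes the calmodulin-dependent kinase that phosphorylates regulatory light chains in smooth muscle. Myl7 is best known as a marker of atrial cardiomyocytes.

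All values are RMA log2 intensities, and a level is read only within a gene, since probe sets of different genes differ in brightness. The array medians over genes were 5.26 to 5.41 and the lower quartiles 4.22 to 4.39. No member lay below the lower quartile on any array. The array of placebo replicate 3 stood apart, with a Pearson r across genes of 0.857 to 0.865 with the other arrays, against 0.960 to 0.994 among those. All 16 intestinal epithelial genes listed were highest there, with a list mean of 10.3 against 4.28 to 4.61 on the other arrays. Of the markers of the labelled tissue, the keratin genes Krt8, Krt18 and Krt19 and Wt1, a transcription factor of ovarian surface epithelium, lay above the median of genes on all 6 arrays, as did Epcam, an epithelial adhesion molecule. The remaining marker, the keratin gene Krt7, was above it on 5 of the 6. Krt7 was lower with E2, at 7.36, 7.99 and 7.67 in the placebo tumours and 5.34, 5.29 and 5.30 in the E2 tumours (log2 change -2.36, SE 0.16, limma adjusted p = 0.0044). Without E2 replicate 1 its adjusted p was 0.0581.

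Myl7 was higher in every E2 tumour than in any placebo tumour. Against the array median it stood at -0.04, -0.02 and 0.65 log2 in placebo replicates 1, 2 and 3. Its log2 values were 5.28, 5.39 and 5.96 in placebo replicates 1, 2 and 3. They were 8.86, 8.89 and 9.03 in E2 replicates 1, 2 and 3. The groups did not overlap, the E2 tumours were close together, and placebo replicate 3 was the highest placebo tumour. The placebo mean was 5.55 ± 0.36 and the E2 mean 8.93 ± 0.09 (each SD, n = 3). E2 was higher by 3.38 log2 units (SE 0.19, 95% confidence interval 2.92 to 3.84), or 10.4-fold, and by 3.59 log2 units (SE 0.10), or 12.0-fold, without placebo replicate 3. In whole tumours, more cells that express a gene and more RNA per cell cannot be told apart.

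**Figure D1:**
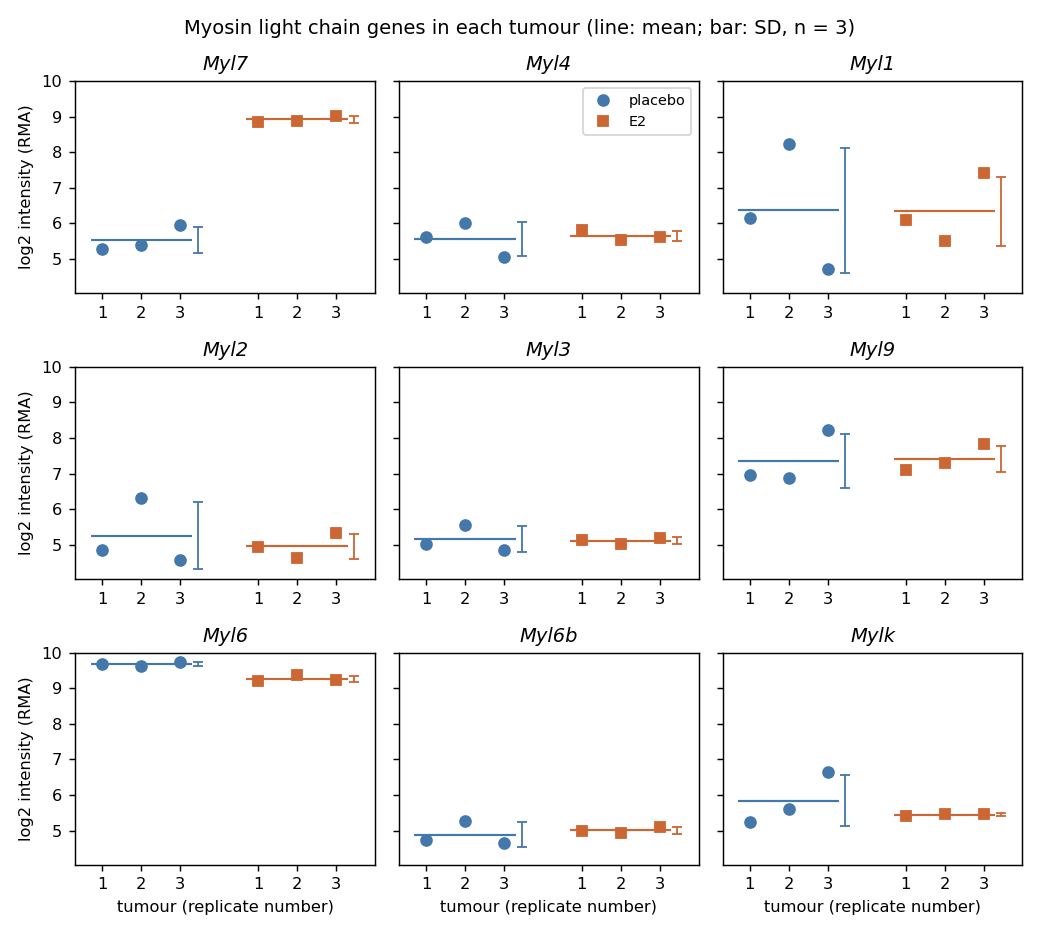
RMA log2 intensity of each light chain gene and of Mylk (vertical axis, shared by the panels) in each tumour (horizontal axis, replicate number), with placebo tumours as circles and E2 tumours as squares; lines are group means and bars are SD of 3 tumours. Myl7 sits at 5.28 to 5.96 with placebo and at 8.86 to 9.03 with E2, while the 2 groups overlap for every other gene except Myl6.

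Of the 9 members, Myl7 alone had a limma adjusted p under 0.05, the threshold used across all genes, which 1.38% of genes passed in either direction and 1.06% passed as higher in E2 (6.4% as higher without placebo replicate 3). That count rests on the difference by which Myl7 had been singled out and says nothing further about the family. The median log2 change of the 9 members was -0.03, and that of all genes was -0.01. Groups that did not overlap were seen for Myl7 and Myl6, 2 of 9 members, against 26.3% of all genes. For the other 7 members the ranges of the groups overlapped.

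**Figure D2:**
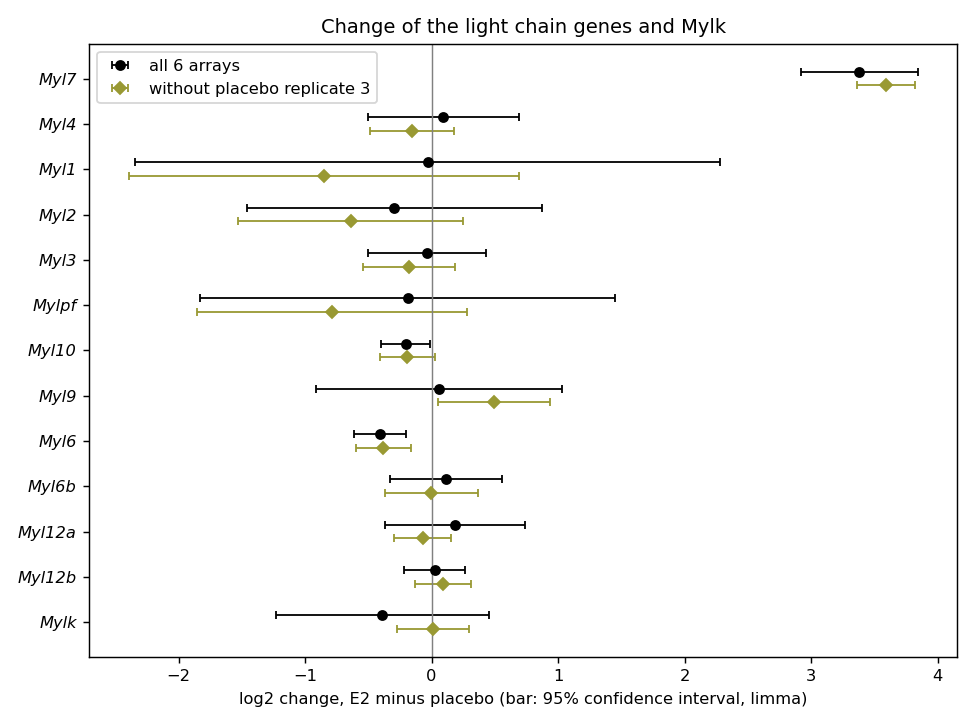
Log2 change of each light chain gene and of Mylk, E2 minus placebo (horizontal axis), with 95% confidence intervals from limma; circles use all 6 arrays and diamonds leave out placebo replicate 3. Myl7 lies at 3.38 and 3.59, and the other genes lie between -0.85 and 0.49 in both fits.

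The stretch before the Myl7 start site is shown with those of other light chain genes, with 2 short motifs marked. The part of these motifs in the Myl7 difference was not tested. The sequences are the 250 bases before the start site in RefSeq, build GRCm38.p6. All 9 members had such a sequence, and Myl2 and Myl6 had 2 start sites each. Capitals mark the CArG box, which binds serum response factor, and GATAA (or TTATC on the other strand), the core letters bound by GATA factors. The Myl7 sequence lies at chr11:5898783-5899032 on the minus strand. The Myl3 sequence lies at chr9:110763428-110763677, the Myl9 sequence at chr2:156775214-156775463 and the Myl4 sequence at chr11:104550413-104550662, all on the plus strand.
Myl7: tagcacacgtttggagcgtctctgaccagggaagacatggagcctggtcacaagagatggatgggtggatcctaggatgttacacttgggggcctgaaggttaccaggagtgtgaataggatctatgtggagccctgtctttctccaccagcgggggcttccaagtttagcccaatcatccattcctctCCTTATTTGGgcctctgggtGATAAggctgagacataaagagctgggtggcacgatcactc
Myl3: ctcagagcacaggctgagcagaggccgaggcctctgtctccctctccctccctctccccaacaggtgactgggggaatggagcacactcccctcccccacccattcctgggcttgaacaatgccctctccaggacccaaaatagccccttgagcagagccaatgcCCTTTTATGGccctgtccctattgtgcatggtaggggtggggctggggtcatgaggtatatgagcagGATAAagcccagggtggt
Myl9: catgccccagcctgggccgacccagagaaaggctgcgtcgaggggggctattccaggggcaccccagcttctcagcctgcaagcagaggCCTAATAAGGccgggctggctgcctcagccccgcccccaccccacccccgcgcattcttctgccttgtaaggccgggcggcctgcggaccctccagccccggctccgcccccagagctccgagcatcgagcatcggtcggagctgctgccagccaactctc
Myl4: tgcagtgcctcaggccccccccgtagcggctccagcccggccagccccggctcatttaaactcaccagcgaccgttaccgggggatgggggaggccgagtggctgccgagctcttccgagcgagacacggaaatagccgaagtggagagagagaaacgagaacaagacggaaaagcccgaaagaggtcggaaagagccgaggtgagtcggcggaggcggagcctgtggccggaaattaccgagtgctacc

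Myl7 had a CArG box 61 to 52 bases before its start site and GATAA 41 to 37 bases before it. A CArG box was found in 4 of the 11 member sequences (those of Myl3, Myl7, Myl9 and 1 of those of Myl6) and in 1.47% of the 32851 RefSeq start sites of the same length. GATAA on either strand was found in 4 of 11 (Myl2, Myl3, Myl6 and Myl7) and in 22.6% of all. Both motifs stood before Myl3, which differed by -0.03 log2 between the treatments. Both also stood before 1 of the 2 start sites of Myl6, which differed by -0.41 log2. Neither stood before Myl4. The palindromic oestrogen response element GGTCANNNTGACC was in 0 of 11 member sequences and in 0.0639% of all. These 3 motifs, and the 4 sequences printed, were chosen from 9 motifs searched, after the sequences and the genes' values were seen. The longer GATA factor site (AGATAA or AGATAG or TGATAA or TGATAG, either strand), which overlaps GATAA, was in 4 of 11 member sequences (Myl1, Myl2, Myl6 and Myl7) and in 26.5% of all, so Myl3 held the shorter letters but not this site. AGGTCA, a single arm of the oestrogen response element, on either strand, was in 1 of 11 (Myl2) and in 14% of all. The E-box CANNTG was in 7 of 11, the sequence of Myl7 among them, and in 66.2% of all. The MEF2 site was in 0 of 11 and 2.92% of all, TATAAA on the gene's strand in 0 of 11 and 7.59%, and the SF1 site (TCAAGGTCA or TCAAGGCCA or CCAAGGTCA or CCAAGGCCA, either strand) in 0 of 11 and 1.92%. All of these matches describe letters in a window and are not binding sites measured here.

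Myl4, the essential chain that accompanies Myl7 in the atrium, did not separate the groups. Myl4 measured 5.61, 6.02 and 5.06 in placebo replicates 1, 2 and 3 and 5.81, 5.53 and 5.63 in E2 replicates 1, 2 and 3. The E2 tumours lay inside the placebo range. The difference was 0.09 log2 (SE 0.24, 95% confidence interval -0.50 to 0.69, limma adjusted p = 0.875), and it was -0.16 (adjusted p = 0.572) without placebo replicate 3.

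The list of 21 atrial and cardiac muscle genes had 0 genes past the limma threshold on 6 arrays, with 2 higher and 1 lower at an unadjusted p under 0.05, which 16.5% of all genes had in either direction. Its median log2 change was -0.04, and 0 genes passed without placebo replicate 3. The list mean was 4.85 to 5.32 over the placebo tumours and 4.96 to 5.22 over the E2 tumours, and 14 of the 21 genes lay below the array median on all 6 arrays. Nppa, which encodes the atrial natriuretic peptide, measured 4.41 to 4.55 with placebo and 4.36 to 4.44 with E2, just above the lower quartile. Myh6, the atrial heavy chain gene, measured 4.93 to 5.16 with placebo and 4.76 to 5.19 with E2. The cardiac troponin I gene Tnni3 measured 4.65 to 4.96 over all arrays, and the cardiac myosin binding protein gene Mybpc3 measured 4.84 to 5.15. These 4 of the 6 defining cardiac markers were below the array median on every array. The other 2, Tnnt2 and Actc1, were above it on every array. The part of cardiac cells in the Myl7 values was not tested.

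The 3 cardiac list genes of smallest p were Actc1, Ankrd1 and Tnnc1. Actc1, cardiac actin, measured 6.08, 6.44 and 6.62 in the placebo tumours and 5.88, 5.64 and 5.90 in the E2 tumours, a difference of -0.57 log2 (SE 0.16, limma adjusted p = 0.171). Ankrd1, a nuclear ankyrin repeat protein of strained muscle, measured 5.43, 6.55 and 5.15 with placebo and 6.73, 6.77 and 7.47 with E2. Its groups did not overlap, which 14.9% of all genes showed with E2 higher. Its difference was 1.28 log2 (SE 0.40, adjusted p = 0.205). Tnnc1, the troponin C of heart and slow muscle, measured 5.53, 7.22 and 4.73 with placebo and 7.54, 7.23 and 7.85 with E2. The highest placebo value of Tnnc1 was just under the lowest E2 value, and its difference of 1.72 log2 (SE 0.62) had an adjusted p of 0.253. Without placebo replicate 3 it was 1.17 log2 (adjusted p = 0.134). Without placebo replicate 2 it was 2.41 log2 and passed (adjusted p = 0.0465).

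Among the striated light chains, Myl1, Myl2 and Myl3 varied more between tumours of the same group than between the groups. Myl1 measured 6.15, 8.24 and 4.73 in placebo replicates 1, 2 and 3 and 6.08, 5.52 and 7.41 in E2 replicates 1, 2 and 3. The highest and the lowest Myl1 values both belonged to placebo tumours, and the group means, 6.37 ± 1.76 and 6.34 ± 0.97 (SD, n = 3), differed by -0.03 log2 (SE 0.95, 95% confidence interval -2.35 to 2.28, limma adjusted p = 0.990). With placebo replicate 3 left out the difference was -0.85 (adjusted p = 0.499), and with placebo replicate 2 left out it was 0.90 (adjusted p = 0.521).

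Myl2 was 4.87, 6.33 and 4.56 in placebo replicates 1, 2 and 3 and 4.93, 4.62 and 5.32 in E2 replicates 1, 2 and 3. Its difference of -0.30 log2 (SE 0.48, limma adjusted p = 0.784) became -0.64 without placebo replicate 3 and 0.24 without placebo replicate 2. Placebo replicate 2 was the high tumour, and the other 5 tumours lay between 4.56 and 5.32. Myl3 was 5.03, 5.56 and 4.86 with placebo and 5.15, 5.01 and 5.20 with E2, a difference of -0.03 log2 (SE 0.19, adjusted p = 0.947) that was 0.17 without placebo replicate 2. Mylpf, the fast skeletal regulatory chain and not one of the 9 members, was 5.41, 7.08 and 4.46 with placebo and 5.23, 5.11 and 6.04 with E2, a difference of -0.19 log2 (SE 0.67, adjusted p = 0.911) that was -0.79 without placebo replicate 3.

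Myl1, Myl2, Myl3, Myl4 and Myl6b each had their highest value in placebo replicate 2 and their lowest in placebo replicate 3, an order that 6.85% of all genes had. Placebo replicate 3 was the lowest array for 33% of all genes. The 22 skeletal muscle sarcomere genes listed had their highest value in placebo replicate 2 or E2 replicate 3 in 22 of 22 cases and their lowest in placebo replicate 3 in 21. The list mean was 6.16, 8.29 and 4.90 in the placebo tumours and 6.56, 6.12 and 8.08 in the E2 tumours. The E2 values of this mean lay inside the placebo range. The median log2 change of the list was 0.41, and -0.23 without placebo replicate 3. Of the list, 0 of 22 genes passed the limma threshold, with 0 at an unadjusted p under 0.05 and 0 past the threshold without placebo replicate 3. Acta1, skeletal actin, differed by 1.13 log2 (SE 1.09, adjusted p = 0.628), the fast troponin T gene Tnnt3 by 1.06 (SE 0.99, adjusted p = 0.616), and the slow myosin binding protein gene Mybpc1 by 1.38 (SE 1.14, adjusted p = 0.572). Without placebo replicate 3 these differences were -0.018 for Acta1, 0.18 for Tnnt3 and 0.35 for Mybpc1. The part of host muscle in the values of Myl1 and Myl2 was not tested. Myl7 had its lowest value in placebo replicate 1 and its highest in E2 replicate 3. Its highest value could only lie in an E2 tumour, since Myl7 was singled out by its rise with E2. The part of host muscle in the Myl7 values was not tested.

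To set Myl7 against the other light chains without comparing brightness, each gene was centred on its own mean over the 6 arrays. On that scale Myl7 was -1.95, -1.84 and -1.27 in placebo replicates 1, 2 and 3 and 1.62, 1.66 and 1.79 in E2 replicates 1, 2 and 3. The median of Myl1, Myl2, Myl3 and Myl4 was -0.16, 0.83 and -0.54 in the placebo tumours and -0.08, -0.31 and 0.14 in the E2 tumours. The median of Myl6, Myl6b and Myl9 was -0.22, 0.15 and 0.26 with placebo and -0.27, -0.07 and 0.16 with E2. Neither of these medians separated the groups. The log2 change of Myl7 exceeded the median change of the other striated chains by 3.41 and that of the smooth muscle and non-muscle chains by 3.32. Both are descriptions, since Myl7 was chosen for its change.

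**Figure D3:**
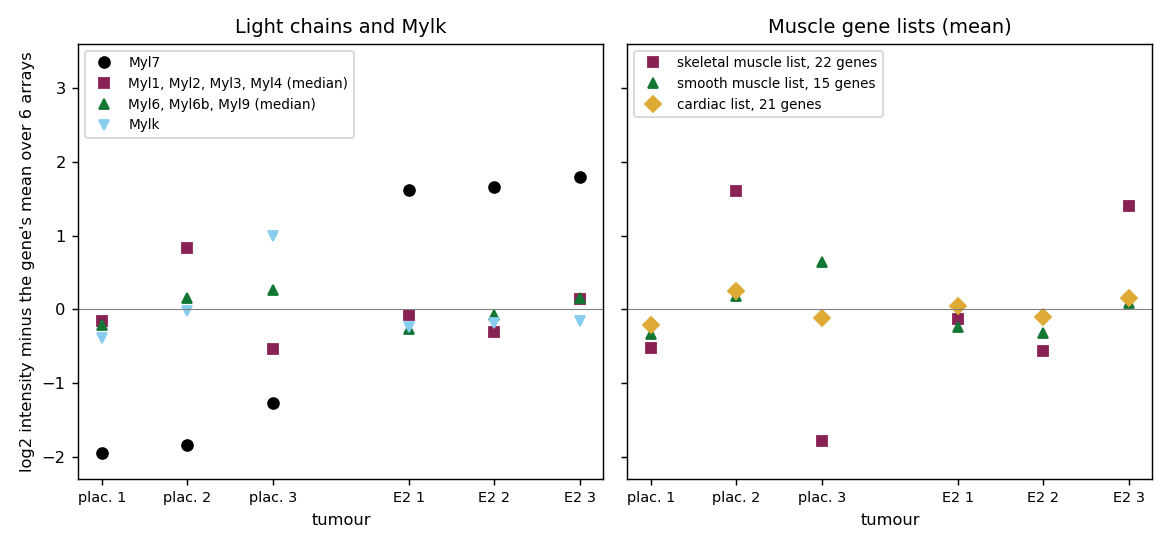
Log2 intensity minus each gene's own mean over the 6 arrays (vertical axis) for each tumour (horizontal axis), for the light chains and Mylk (left) and for the mean of 3 muscle gene lists (right). Myl7 goes from between -1.95 and -1.27 with placebo to between 1.62 and 1.79 with E2, while the skeletal list is high in placebo replicate 2 (1.61) and E2 replicate 3 (1.40), and Mylk and the smooth muscle list are highest in placebo replicate 3.

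Myl9 and Mylk, which serve smooth muscle contraction, were highest in placebo replicate 3 and did not separate the treatments. Myl9 measured 6.95, 6.89 and 8.22 in placebo replicates 1, 2 and 3 and 7.11, 7.31 and 7.82 in E2 replicates 1, 2 and 3. Its difference was 0.06 log2 (SE 0.40, 95% confidence interval -0.91 to 1.03, limma adjusted p = 0.953). With placebo replicate 3 left out, the difference was 0.49 log2 (SE 0.19) and did not pass (limma adjusted p = 0.154).

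Mylk was 5.25, 5.62 and 6.64 with placebo and 5.40, 5.46 and 5.48 with E2. The E2 tumours were close together and lay between placebo replicates 1 and 2. The difference of -0.39 log2 (SE 0.34, limma adjusted p = 0.600) was 0.01 (SE 0.12, adjusted p = 0.967) without placebo replicate 3.

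The 15 smooth muscle contractile genes listed were highest in placebo replicate 3 in 9 cases, against 27.9% of all genes. Their median log2 change was -0.34. Their mean level was 6.16, 6.67 and 7.13 in placebo replicates 1, 2 and 3 and 6.17 to 6.58 in the E2 tumours. Myh11, the smooth muscle heavy chain gene, measured 5.28, 5.55 and 8.70 with placebo and 4.78 to 5.29 with E2, and the smooth muscle actin gene Actg2 measured 4.63, 4.92 and 8.43 with placebo and 4.53 to 4.58 with E2. The other 6 were highest in placebo replicate 2 or E2 replicate 3, and 3 of the 15 were lowest in placebo replicate 3. Myl9 and Mylk were highest in placebo replicate 3 too, and the part of smooth muscle in the Myl9 and Mylk values was not tested. Of the list, 1 gene fell past the limma threshold, which 0.326% of all genes passed as lower: Cald1, which encodes the actin-binding caldesmon, had a log2 change of -1.04 (SE 0.10, adjusted p = 0.0107). Its values were 7.47, 7.29 and 7.52 with placebo and 6.38, 6.31 and 6.47 with E2. It lost the call whenever placebo replicate 1 or any E2 replicate was left out (adjusted p = 0.0671 to 0.0947). Without placebo replicate 3 the list had 2 higher and 2 lower genes past the threshold, against 6.4% and 5.21% of all genes. Among them was Tpm1, a tropomyosin named here after its values were seen (0.80 log2, adjusted p = 0.0295, and on 6 arrays 0.78 log2, adjusted p = 0.114).

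Myl6, the essential chain of smooth muscle and non-muscle myosin, was slightly lower in every E2 tumour. It measured 9.67, 9.62 and 9.73 in placebo replicates 1, 2 and 3 and 9.21, 9.36 and 9.24 in E2 replicates 1, 2 and 3. The groups did not overlap, which 11.4% of all genes showed with E2 lower. The difference was -0.41 log2 (SE 0.08, 95% confidence interval -0.61 to -0.20), a 1.33-fold difference that did not pass the threshold (limma adjusted p = 0.0885). Without placebo replicate 3 it was -0.38 log2 and passed (adjusted p = 0.0382), in a fit in which 5.21% of all genes were called lower and 11.6% were called in either direction. Myl6 had 5 single-gene probe sets and every other member had 1. The 5 probe sets differed by -0.41, -0.43, -0.18, -0.54 and -0.27 log2 from the brightest to the dimmest, with no overlap of the groups in any of them. They are annotated with largely the same transcripts, so they may share probes or read near-identical copies of Myl6 and are not independent measurements.

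The neighbouring gene Myl6b was not lower with E2. It measured 4.73, 5.28 and 4.66 with placebo and 4.99, 4.92 and 5.10 with E2, below the array median on every array. Its difference was 0.12 log2 (SE 0.18, limma adjusted p = 0.776) and -0.00074 without placebo replicate 3. The non-muscle regulatory chains Myl12a and Myl12b, which are close paralogues of Myl9 and whose probes may overlap, differed by 0.19 log2 (SE 0.23, adjusted p = 0.699) and 0.02 log2 (SE 0.10, adjusted p = 0.923). Myl12a measured 8.58 in placebo replicate 3 and 9.18 to 9.38 elsewhere, and without that array it differed by -0.07. Myl12b stayed between 9.29 and 9.57 on all 6 arrays. Myl10, a lymphoid regulatory chain, measured 4.74, 4.61 and 4.72 with placebo and 4.53, 4.43 and 4.48 with E2, a difference of -0.21 log2 (SE 0.08) that did not pass (adjusted p = 0.288).

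The enzymes that act on the regulatory light chains showed no member past the threshold on 6 arrays. Of 10 measured genes for light chain kinases and calmodulin, Mylk among them, 0 passed the limma threshold and 0 had an unadjusted p under 0.05, with a median log2 change of -0.12. The cardiac kinase gene Mylk3 differed by 0.38 log2 (SE 0.19, adjusted p = 0.389), the calmodulin gene Calm3 by -0.29 (SE 0.15, adjusted p = 0.401) and Mylk4 by -0.66 (SE 0.45, adjusted p = 0.511). Mylk4 was below the lower quartile on 5 of 6 arrays and 5.51 in placebo replicate 2, the array on which Myl1 was also highest. Without placebo replicate 3, 2 of the 10 genes were lower past the threshold, against 5.21% of all genes, and Calm3 was 1 of them (-0.43 log2, adjusted p = 0.0372).

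Of 7 genes for the myosin phosphatase, which removes the phosphate that Mylk adds, 0 passed the limma threshold on 6 arrays and 0 passed without placebo replicate 3. On 6 arrays 1 was higher at an unadjusted p under 0.05, and the median log2 change was -0.01. The inhibitor gene Ppp1r14b differed by 0.37 log2 (SE 0.14, adjusted p = 0.278), the targeting subunit gene Ppp1r12b by -0.25 (SE 0.12, adjusted p = 0.384) and the smooth muscle inhibitor gene Ppp1r14a by -0.22 (SE 0.12, adjusted p = 0.440).

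The 13 class II myosin heavy chain genes, the partners of the light chains, had 0 genes past the limma threshold and 0 at an unadjusted p under 0.05 on 6 arrays, with a median log2 change of 0.11. Myh11 differed by -1.43 log2 (SE 0.90, adjusted p = 0.483), Myh13, a fast chain of eye muscle, by -0.14 (adjusted p = 0.523) and the perinatal chain Myh8 by -0.31 (adjusted p = 0.586). Without placebo replicate 3 the Myh11 difference was -0.34 and that of Myh8 -0.55. Myh7, the heavy chain of ventricle and slow muscle, also named after its values were seen, was 5.53, 7.17 and 5.21 with placebo and 6.13, 5.42 and 7.03 with E2. Myh14, a non-muscle heavy chain chosen in the same way, measured 5.80, 5.61 and 7.73 with placebo and 6.99, 6.83 and 7.25 with E2. Its difference was 0.65 log2 (SE 0.57, adjusted p = 0.594) on 6 arrays and 1.33 log2 (SE 0.14, adjusted p = 0.00112) without placebo replicate 3. Myh14 was the 1 heavy chain call in that fit, in which 6.4% of all genes were called higher.

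Of 23 measured transcription factor genes of cardiac, smooth and skeletal muscle, 1 rose past the limma threshold, against 1.06% of all genes. The other 22 did not pass, and the median log2 change of the list was -0.03. The gene that rose was Gata4, a factor of heart and gonadal somatic cells. Its values were 6.61, 7.12 and 6.91 with placebo and 8.48, 8.33 and 8.66 with E2, without overlap. The log2 change was 1.61 (SE 0.16, adjusted p = 0.0136), and it lost the call when any E2 replicate was left out (adjusted p = 0.0712 to 0.1001). In the fit without placebo replicate 3, 1 gene of this list was higher and 1 lower, 2 of 23 where 11.6% of all genes passed.

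**Figure D4:**
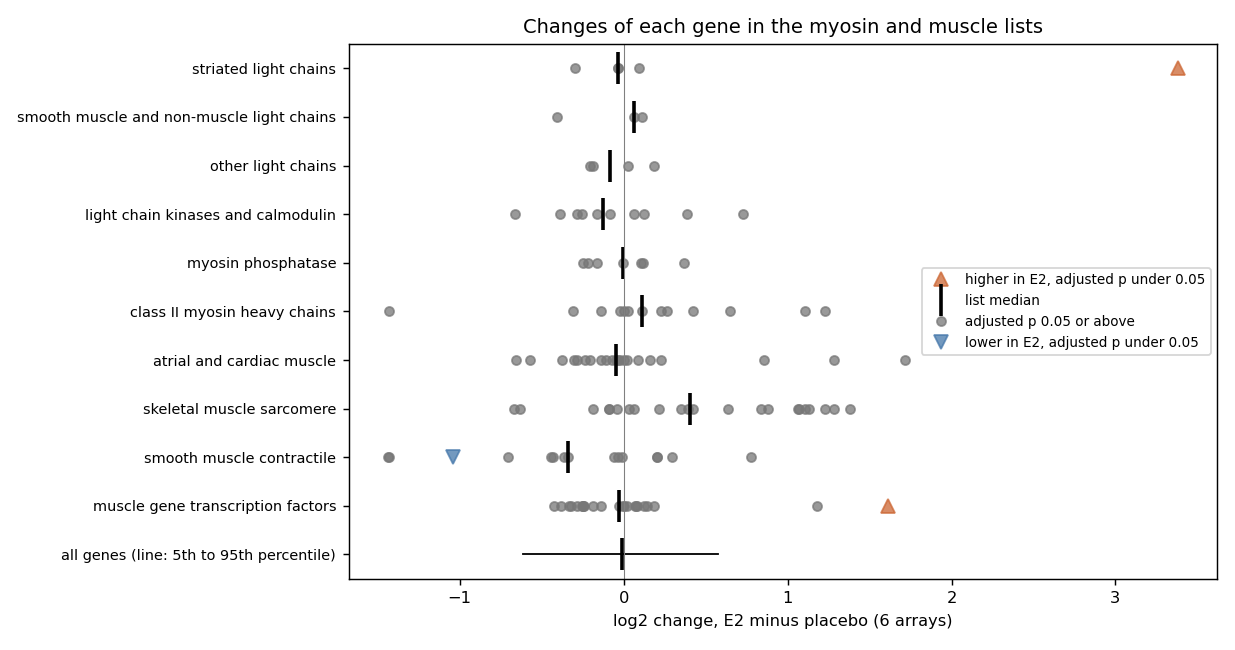
Log2 change of each gene, E2 minus placebo (horizontal axis), in 10 lists of myosin and muscle genes (vertical axis), with the list median as a bar and, at the bottom, the median and the 5th to 95th percentile of all genes; triangles mark genes with a limma adjusted p under 0.05. Myl7 (3.38), Gata4 (1.61) and Cald1 (-1.04) are the genes marked, and Myl7 had been singled out by its change.

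The genes whose profile was most like that of Myl7 over the 6 arrays were Lipg, Qrfprl, Kctd14, Inha, Greb1 and Prss35. Likeness was the root mean square difference between log2 values after each gene was centred on its own mean, and it was 0.22 for Lipg, 0.24 for Qrfprl, 0.29 for Kctd14, 0.31 for Inha, 0.32 for Greb1 and 0.35 for Prss35. It is given without a test, and it is set mainly by the size of the difference between the groups. Lipg, the endothelial lipase gene, was 4.45, 4.22 and 4.87 in placebo replicates 1, 2 and 3 and 7.39, 7.60 and 7.59 in E2 replicates 1, 2 and 3. As with Myl7 and Kctd14, placebo replicate 3 was its highest placebo tumour, which was not so for Qrfprl, Inha, Greb1 and Prss35. Inha, the inhibin alpha subunit gene, was 5.44, 5.55 and 5.49 with placebo and 9.31, 9.15 and 9.45 with E2. The light chain nearest to Myl7 was Myl12a, at 1.66, and the nearest member was Myl6b, at 1.67. Neither was close to Myl7, since by likeness they ranked 6360 and 6631 among all genes.

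Genes of other cells in the tumour samples were counted beside the members. Of 13 measured ovarian steroidogenic and granulosa cell genes, 7 were higher in E2 past the limma threshold, against 1.06% of all genes, with a list mean of 4.56 to 4.82 in the placebo and 6.38 to 6.65 in the E2 tumours. The list mean did not overlap between the groups, while single genes of it differed by -0.18 to 5.07 log2 and 4 of the 13 were highest in placebo replicate 3. Over all 19937 genes, 1.06% passed as higher and 0.326% as lower. At an unadjusted limma p under 0.05, 2069 were higher and 1229 lower. Of 13 epithelial and ovarian surface epithelium genes 1 passed as higher and 1 as lower, with 1 higher and 4 lower at an unadjusted p under 0.05. The higher gene was Gata4, counted above among the muscle transcription factors too, and the lower gene was Krt7. The median log2 change of this list was -1.19, and -0.68 without placebo replicate 3. That array was the highest for 6 of the 13 genes and the lowest for 3. The mean of this list did not overlap either, at 7.09 to 7.70 with placebo and 6.33 to 6.54 with E2. Of 10 macrophage genes 2 were lower past the threshold, with 4 lower at an unadjusted p under 0.05, a median log2 change of -0.88 and a list mean of 6.85 to 7.80 with placebo and 6.36 to 6.77 with E2, again without overlap. The part of these 3 lists in the Myl7 difference was not tested. Of 10 endothelial genes 1 was higher past the threshold, with 6 lower at an unadjusted p under 0.05. Of 12 pericyte and fibroblast genes 0 passed, with 1 higher and 3 lower at an unadjusted p under 0.05, and of 16 intestinal genes 0 passed and 0 had an unadjusted p under 0.05. With 1 array left out at a time, the genes past the threshold in either direction numbered 3 to 10 for the steroidogenic and granulosa list, 0 to 6 for epithelium, 0 to 5 for endothelium, 0 to 9 for macrophages, 0 to 8 for pericytes and fibroblasts and 0 for intestine. In each of the 5 lists with a range, the highest count was that without placebo replicate 3, and the lowest was reached with an E2 replicate left out, and for endothelium, macrophages and pericytes also with placebo replicate 1 left out. For macrophages it was reached without placebo replicate 2 as well.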

How the data were processed

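RNA of 6 MASE2 tumours was hybridised to whole-transcript arrays, 1 array per tumour, per the labels' protocols. The values deposited by the authors are log2 intensities per probe set made with RMA, per the submitters' processing notes, and the sources used here do not name its software, version or annotation. RMA equalises the arrays' distributions and compresses large differences near background. Of 34760 probe sets, 21640 had 1 gene symbol in the platform annotation, 1321 had several and 11799 were not listed there. This left 19937 genes, and 0 columns of sample values were unmapped.

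Groups came from the sample titles. E2 and placebo were compared over all genes in limma 3.58.1 (lmFit, eBayes; R 4.3.3), two-sided, with p adjusted by Benjamini and Hochberg over all genes and a threshold of 0.05. The series' design text calls the tumours biological replicates. Of the steps, only the limma fit was tested on simulated data, with noise drawn independently for each gene and array. The members and 16 gene lists were chosen with earlier results of these data known. Named were the members, the other light chains, up to 6 called genes per list by smallest p (3 where none was called), 6 genes of most similar profile, and cell type markers near the lower quartile. Of the genes this rule admits, those that bear on myosin are named. Krt8, Krt18, Krt19, Epcam, Wt1, Myh7, Myh14 and Tpm1 were named after their values were seen.

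Alternatives were each array left out, the replicate number as a block, repeated quantile normalization, median centring, mean of probe sets, filters on dim genes, trended and robust variance, array weights and an adjusted p under 0.10.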

Additional observations from a re-analysis of the deposited data

How the results depend on the processing

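The number of arrays limits precision, and no detection call was used, so a value near the lower quartile may be background. The count of all genes past the threshold, 276 on 6 arrays, was 31 to 2315 with 1 array left out (78 without placebo replicate 1, 2315 without placebo replicate 3, and 31, 43 and 44 without E2 replicates 1, 2 and 3), 10 with the replicate number as a block, 422 with median centring, 1786 with array weights and 736 at an adjusted p under 0.10. The block lowered it although the replicate numbers did not pair the tumours (r of same-numbered deviations -0.03, -0.18 and -0.13, and 0 of 6 arrays closest to their own number). Members past the threshold numbered 1, or 1 to 2 with 1 array left out, 2 with array weights and 2 at an adjusted p under 0.10, the second being Myl6. The Myl7 change was 3.25 to 3.59 log2 over all settings. Its excess over the smooth muscle and non-muscle chains was 3.28 to 3.59 with 1 array left out, and over the other striated chains 3.02 to 3.999. Under the block Greb1, Lipg, Prss35, Cald1, Gata4 and Krt7 lost their calls.

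Among the named genes the sign turned for uncalled ones only. With 1 array left out the log2 change ranged from -0.85 to 0.90 for Myl1, -0.64 to 0.24 for Myl2, -0.18 to 0.17 for Myl3, -0.16 to 0.32 for Myl4, -0.00074 to 0.31 for Myl6b, -0.17 to 0.49 for Myl9, -0.68 to 0.013 for Mylk, and -0.79 to 0.53 for Mylpf, -0.070 to 0.33 for Myl12a, -0.051 to 0.091 for Myl12b, -0.19 to 0.83 for Myh7, -0.12 to 0.090 for Myh6, -0.11 to 0.045 for Mybpc3 and -0.018 to 2.13 for Acta1. Repeated quantile normalization gave 0.053 for Myl3, -0.034 for Myl9, -0.048 for Myl12b, 0.059 for Myh6, 0.042 for Mybpc3 and 0.020 for Nppa. Median centring gave 0.015 for Myl1, 0.012 for Myl3, 0.022 for Myh6 and 0.010 for Mybpc3. Array weights gave -0.10 for Myl4, -0.040 for Myl12a, -0.18 for Myh7 and 0.039 for Mybpc3. The cause was not tested.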
